A study of Mus musculus with 2 samples.

Results

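The sodium, calcium and proton pumps are membrane proteins that spend ATP to move ions against their gradients. Here they were taken as every gene whose single symbol in the platform annotation starts with Atp1a, Atp1b, Atp2a, Atp2b, Atp2c or Atp6v, a rule by name. That gave 34 of 18193 named genes: 5 sodium pump genes, 9 calcium pump genes and 20 proton pump genes, with 77 probe sets between them.

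Transcript levels were read on 2 Affymetrix arrays of mouse cerebral cortex, with 1 array per genotype. The first array received cortex RNA of 3 males aged 4 weeks, here called a pool, titled as knockouts of Gnmt, the gene of glycine N-methyltransferase. The second received a pool of 3 wild-type males of that age. Both pools were of strain 129/B6. The knockout-titled sample is entered as wild-type in its genotype field, so the grouping rests on the titles. Which part of Gnmt was deleted is not stated in the sources used here. Its only probe set gave 21.5 units in the knockout-titled pool and 10.0 units in the wild-type pool. Both lie below the floor of 64.2 units used for a measured signal, so Gnmt could not check the titles. Without replicates no difference was tested, and each ratio describes these 2 pools of mice. A bulk signal also cannot tell fewer cells of a type from less RNA per cell.

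The sodium pump, Na,K-ATPase, trades sodium inside the cell for potassium outside and so maintains the gradients that neurons discharge when they fire. Its alpha chain splits ATP, and its beta chain is needed for the alpha chain to fold and reach the cell surface. Calcium pumps lower free calcium after a signal: SERCA pumps (Atp2a) fill the endoplasmic reticulum, PMCA pumps (Atp2b) export calcium through the plasma membrane, and SPCA pumps (Atp2c) load the Golgi apparatus with calcium and manganese. These are P-type pumps, which pass through a phosphorylated intermediate. The proton pump, V-ATPase, is a rotary machine of many subunits in which a cytosolic V1 part splits ATP and a membrane V0 part carries protons. It acidifies lysosomes and endosomes, and in neurons it builds the proton gradient that loads neurotransmitter into synaptic vesicles.

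Most pump genes had nearly the same signal in both pools, and the exceptions were Atp2b4, a calcium pump that was higher in the knockout-titled pool, and 4 subunits of the proton pump that were lower there, Atp6v0b, Atp6v0e, Atp6v1d and Atp6v1e1. A pump gene was measured when at least 1 of its probe sets reached the floor on both arrays, and its ratio is that of the brightest such probe set. Of the 34 genes, 26 were measured. Of these, 21 lay within 1.5-fold between the pools, 4 were lower by 1.5-fold or more in the knockout-titled pool (15.4%) and 1 was higher by that much (3.85%). Among all 12251 measured genes the same limits took in 18.3% as lower and 12.5% as higher. The count of lower pump genes was thus near the share of all genes. The median log2 ratio of knockout-titled over wild-type signal was -0.06 over the pump genes and -0.06 over all genes. The SD of the ratios was 0.46 over the pump genes and 0.64 over all genes. Bright genes had a smaller spread in general: 21 of the 26 pump genes were among the brightest 25% of all genes, where the SD was 0.57 over all genes and 0.44 over the pump genes.

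The yardstick for a single ratio was the disagreement between probe sets of a gene. Over 5375 genes with at least 2 measured probe sets, the SD of the log2 ratio attributable to the probe set was 0.58, or 1.49-fold. It leaves out the spread between mice and between pools. By this measure 21 of the 26 pump genes lay within 1 SD of no difference, against 68.7% of all genes, and 1, Atp6v0b, lay more than 2 SD away. The share of all genes beyond 2 SD was not computed. At a limit of 2-fold, 2 pump genes (7.69%) were lower and 0 were higher, against 6.74% and 3.47% of all genes.

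**Figure D1:**
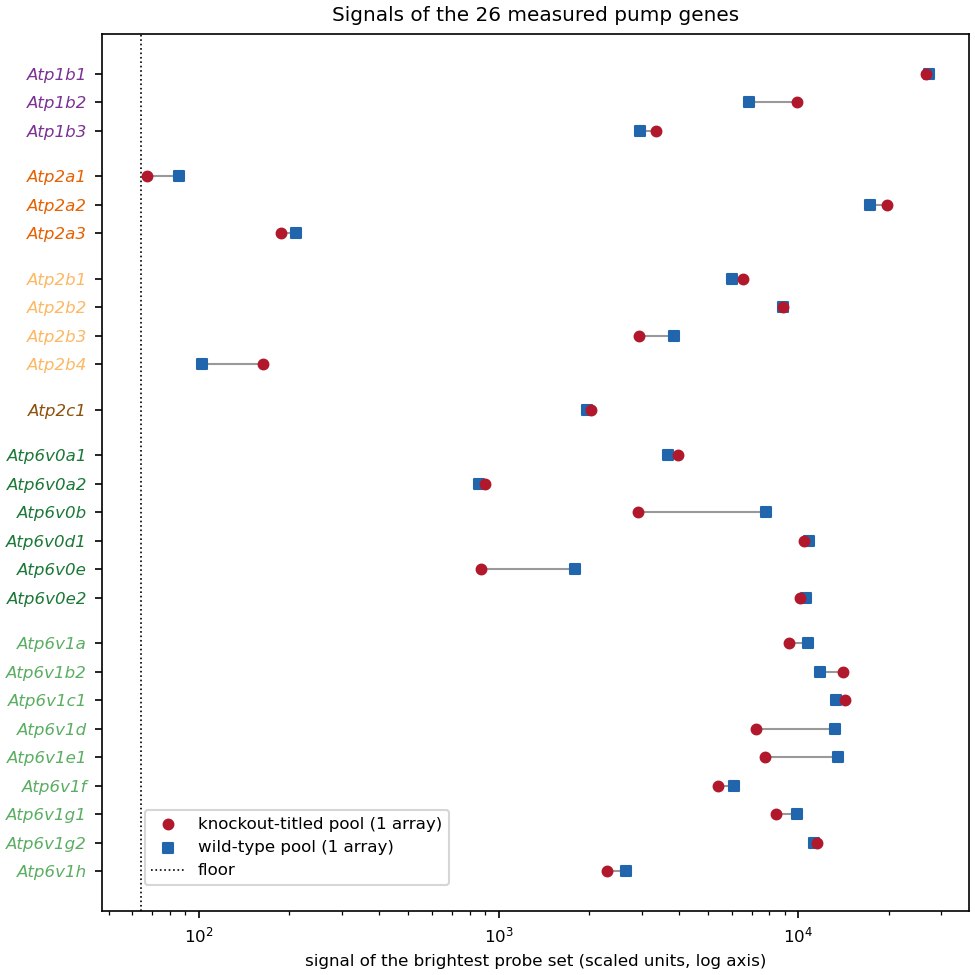
Signal of the brightest probe set of each of the 26 measured pump genes (log axis, scaled units), 1 array per pool, with red circles for the knockout-titled pool and blue squares for the wild-type pool; the dotted line is the floor of 64.2 units and label colours mark the families. Most pairs of symbols touch or overlap, while the knockout-titled circle lies well to the left for Atp6v0b, Atp6v0e, Atp6v1d and Atp6v1e1.

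Atp6v0b had the lowest ratio of the pump genes. It encodes the c'' subunit, which sits in the proton-carrying ring of V0. Its brightest probe set gave 2922.6 units in the knockout-titled pool and 7801.2 units in the wild-type pool, a 2.69-fold difference with a log2 ratio of -1.43. The other probe sets gave 3020.1 and 889.4 units in the knockout-titled pool, against 7071.2 and 1914.7 units in the wild-type pool. All 3 ratios were therefore alike, between -1.43 and -1.12, and only 2.41% of all measured genes had a lower ratio than the brightest of them. All 3 carry the suffix _s_at or _x_at, by which the manufacturer marks probes that can also bind transcripts of other genes, so Atp6v0b has no value from a gene-specific probe set.

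Atp6v0e, the gene of the small membrane subunit e made in most tissues, gave 870.8 units in the knockout-titled pool and 1799.0 units in the wild-type pool. It was 2.08-fold lower in the knockout-titled pool, with a log2 ratio of -1.06 from its only probe set. Its paralog Atp6v0e2, whose product is enriched in brain, gave 10111.7 units in the knockout-titled pool and 10611.4 units in the wild-type pool. The log2 ratio of Atp6v0e2 was -0.08, close to no difference. The difference between the paralogs was not tested.

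The other low pair belongs to V1. Atp6v1d encodes the D subunit of the central shaft, and its probe sets gave 7226.4, 6228.3 and 5871.7 units in the knockout-titled pool, against 13208.1, 10057.9 and 8703.5 units in the wild-type pool. Their log2 ratios were -0.88, -0.70 and -0.58. All were lower in the knockout-titled pool, and the probe set without a suffix had the smallest difference, 1.49-fold. Atp6v1e1 encodes the E subunit of the outer stalk that holds the catalytic head still. Its brightest probe set, which is suffixed _s_at, gave 7712.2 units in the knockout-titled pool and 13526.2 units in the wild-type pool, a log2 ratio of -0.82. Its probe sets without a suffix gave 395.4 and 121.6 units in the knockout-titled pool, against 1146.2 and 259.9 units in the wild-type pool, with log2 ratios of -1.55 and -1.11. Each was lower in the knockout-titled pool.

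These 4 genes were singled out by their brightest probe sets, so only their 6 other measured probe sets, in 3 of the genes, were not used in that choice. All 6 had ratios below 0, from -1.55 to -0.58, and 5 were lower by 1.5-fold or more. They were read from the same RNA and arrays and are no replicates. Among all 8716 measured probe sets other than the brightest of their gene, 18.0% were lower and 22.1% were higher by 1.5-fold or more. That share is over all genes. For genes chosen by a low brightest probe set it was not computed, so no support is drawn from the comparison. For the other proton pump genes, 10 such probe sets held 1 that was lower and 1 that was higher by as much. The brightest probe sets of all 4 low genes carry a suffix (1 _x_at, 1 _s_at and 2 _a_at, the last marking several transcripts of the same gene), as do those of 2 of the other 11 genes. Over all genes the share at least 1.5-fold lower was 12.1% for genes standing on an _x_at probe set, 18.8% for _s_at and 21.9% for _a_at, against 18.3% of all genes. With suffixed probe sets left out, Atp6v0b and Atp6v0e had no value and the count of genes at least 1.5-fold lower was 2. They were Atp6v1e1 and Atp6v1d. The remaining Atp6v1d probe set had -0.62 with that setting's centring and -0.58, short of 1.5-fold, with the main one.

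**Figure D2:**
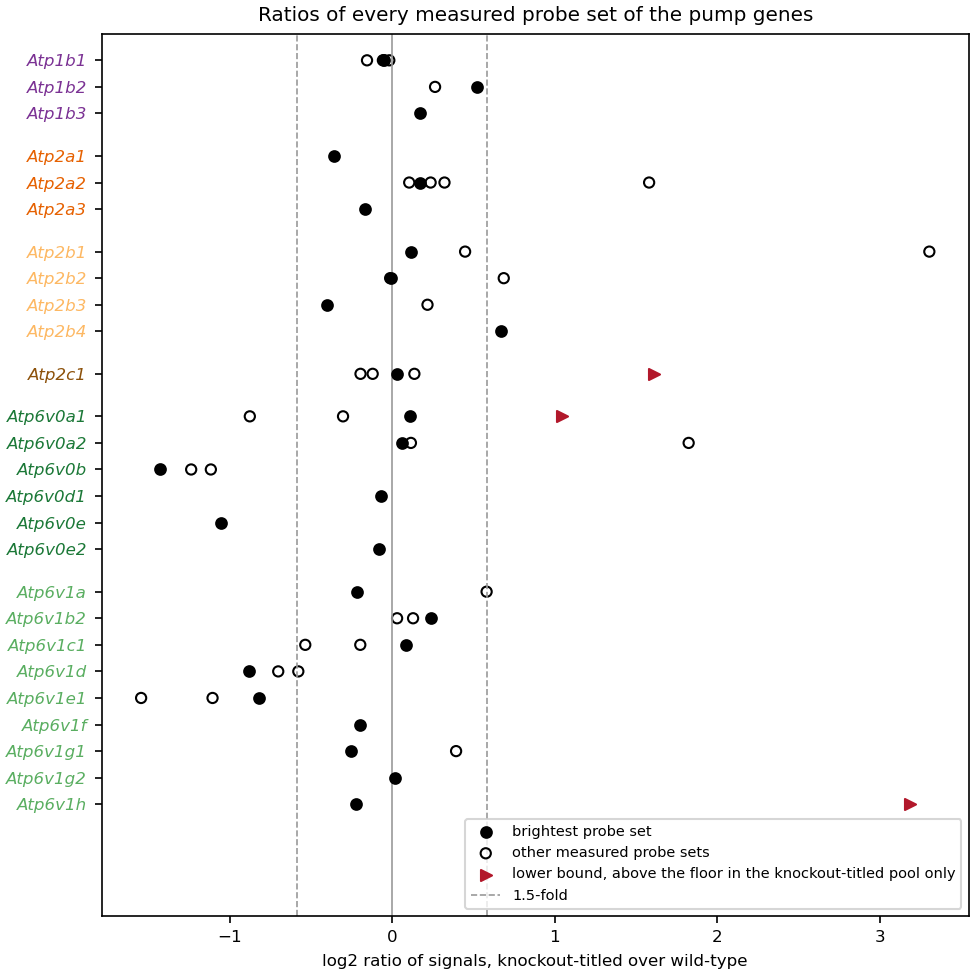
Log2 ratio of knockout-titled over wild-type signal for every measured probe set of the pump genes, 1 row per gene; filled circles are the brightest probe sets, open circles the others, red triangles lower bounds where only the knockout-titled pool reached the floor, and dashed lines mark 1.5-fold. The circles of Atp6v0b, Atp6v0e, Atp6v1d and Atp6v1e1 lie together on the left, whereas Atp2b1, Atp6v0a2 and Atp2a2 each have a single open circle far to the right of the rest.

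The remaining V0 subunits had similar signals in both pools by their brightest probe sets. Atp6v0d1, which encodes the d subunit that couples the central shaft to the V0 ring, gave 10440.2 units in the knockout-titled pool and 10853.2 units in the wild-type pool. Atp6v0a1, the gene of the a subunit isoform prominent at synapses, gave 3975.5 units in the knockout-titled pool and 3666.1 units in the wild-type pool, a log2 ratio of 0.10. Its dimmer measured probe sets had ratios of -0.30 and -0.88. Atp6v0a2, the isoform of the Golgi apparatus and endosomes, gave 902.4 units in the knockout-titled pool and 860.8 units in the wild-type pool. Of the 6 measured V0 genes 2 were at least 1.5-fold lower, against 18.3% of all genes. The V0 median of -0.07 was 0.09 with quantile normalization, 0.05 with loess, -0.19 with the median of all probe sets and -0.30 by second brightest probe sets.

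In V1 the catalytic head and most of the stalk were within 1.5-fold. Atp6v1a, the gene of the ATP-splitting A subunit, gave 9320.8 and 9583.0 units in the knockout-titled pool with its probe sets, against 10756.4 and 6360.1 units in the wild-type pool. Their log2 ratios, -0.22 and 0.58, had opposite signs, so no direction is given for it. Atp6v1b2, the gene of the B subunit isoform found in brain, gave 14081.5 units in the knockout-titled pool and 11831.5 units in the wild-type pool. Its 3 measured probe sets had ratios between 0.03 and 0.24. Atp6v1c1, whose C subunit governs the docking of V1 onto V0, had ratios between -0.54 and 0.08.

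The small stalk subunits included a brain-enriched isoform. Atp6v1g2, the neuronal G subunit gene, gave 11522.3 units in the knockout-titled pool and 11309.8 units in the wild-type pool, a log2 ratio of 0.01. The widely made Atp6v1g1 had ratios of -0.25 and 0.39 from its measured probe sets. Atp6v1f and Atp6v1h, encoding the F subunit of the shaft and the regulatory H subunit, had ratios of -0.20 and -0.22. Of the 9 measured V1 genes 2 were at least 1.5-fold lower, and the V1 median was -0.22. For all 15 proton pump genes the median was -0.20 and 26.7% were at least 1.5-fold lower, against 18.3% of all genes.

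The letters CACGTG form a short DNA element bound by basic helix-loop-helix factors, among them TFEB, a regulator of lysosomal genes that is known to bind it in an extended form in V-ATPase promoters. Promoters in RefSeq's GRCm38.p6 table, which cover 250 bases before to 50 after a gene's start, were searched for CACGTG, for TCACGTGA, which contains it, and for TCACGTGA preceded by G and followed by C. Each motif reads the same on both strands. Of 20 proton pump genes 14 matched an entry, and a gene counted when any of its starts held the motif. CACGTG was found in 4 of these (28.6%) against 8.09% of 27025 genes, and TCACGTGA in 3 (21.4%) against 1.12%. Of 10 matched sodium and calcium pump genes, 2 (20.0%) held CACGTG, Atp1b3 and Atp2b1, and 1 (10.0%), Atp2b1, held TCACGTGA. The longest form was found in 0 of the 14 proton pump genes, in Atp2b1, and in 0.37% of all genes. With so few genes in either set, no difference between the pump families was tested.

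The promoter stretches that hold a motif are shown 5′ to 3′ for the 4 proton pump genes and Atp2b1, with the motif in capitals, because they set low and level subunits side by side. Atp6v0b and Atp6v0e, the lowest members, come first. Atp6v0d1 and Atp6v1a had brightest ratios of -0.07 and -0.22. The stretches lie at chr4:117887310-117887389 (minus strand), chr17:26676336-26676415 (plus), chr8:105566045-105566124 (minus), chr16:44139347-44139426 (minus) and chr10:98914582-98914661 (plus), in the order given.
Atp6v0b: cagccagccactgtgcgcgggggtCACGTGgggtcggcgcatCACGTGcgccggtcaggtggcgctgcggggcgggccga
Atp6v0e: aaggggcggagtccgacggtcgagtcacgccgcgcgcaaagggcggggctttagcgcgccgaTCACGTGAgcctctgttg
Atp6v0d1: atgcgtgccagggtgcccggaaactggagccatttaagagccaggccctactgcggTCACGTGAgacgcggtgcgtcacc
Atp6v1a: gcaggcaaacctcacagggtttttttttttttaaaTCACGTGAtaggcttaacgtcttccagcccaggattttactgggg
Atp2b1: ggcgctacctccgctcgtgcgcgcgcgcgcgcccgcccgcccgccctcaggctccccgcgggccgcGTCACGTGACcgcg

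Counting the start base in the table as 0, the motifs begin at -36 and -18 in Atp6v0b, at 2 in Atp6v0e, at -4 in Atp6v0d1, at -132 in Atp6v1a and at 6 in Atp2b1. In Atp1b3, whose stretch is not shown, CACGTG begins at -221. On this count the annotated start of the gene lies at -443 for Atp6v1a and at -716 for Atp1b3. In these genes the motif thus lies after the annotated start and before another start in the table. The Atp1b3 window at its other start held none of the motifs. The other low subunits, Atp6v1d and Atp6v1e1, held none of these letters in their windows. Matches were thus present in members with low and with level signals.

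The genes measured for the sodium pump were beta chains, and none differed 1.5-fold. Atp1b1, the beta chain that predominates in neurons, had its 5 probe sets at 26638.5, 18242.7, 13270.4, 10801.4 and 114.6 units in the knockout-titled pool, against 27340.0, 18848.6, 13661.9, 10859.4 and 126.7 units in the wild-type pool. Its log2 ratios lay between -0.16 and -0.02, so bright and dim probe sets gave the same picture. Atp1b2, an adhesion molecule on glia as well as a beta chain, gave 9890.5 and 1084.1 units in the knockout-titled pool, against 6835.7 and 896.5 units in the wild-type pool. Both probe sets were higher in the knockout-titled pool, with log2 ratios of 0.52 and 0.26, within the probe set error. With quantile normalization and with loess, Atp1b2 passed 1.5-fold. Atp1b3 had a log2 ratio of 0.17, with 3350.4 units in the knockout-titled pool and 2955.9 units in the wild-type pool.

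Among 9 astrocyte markers, a cell type that makes much Atp1b2, 0 were higher and 4 were lower by 1.5-fold or more, with a median of -0.28, against 12.5% higher and 18.3% lower among all genes. Their summed signals were 70090.7 units in the knockout-titled pool and 75268.4 units in the wild-type pool. The counts rest on brightest probe sets. All measured probe sets ran from -1.33 to 1.60 for Aqp4, from -0.33 to 3.88 for Slc1a2 and from -0.55 to 1.66 for Gja1. For Gfap they ran from -1.23 to -1.09 and for S100b from -1.23 to -0.92. The part of astrocyte RNA in the Atp1b2 ratio was not tested.

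Calcium pump genes were level in the main isoforms. Atp2a2, encoding SERCA2, the reticulum pump of most cells including neurons, gave 19752.4 units in the knockout-titled pool and 17382.5 units in the wild-type pool, a log2 ratio of 0.17. Of its other measured probe sets, 3 had ratios between 0.10 and 0.32. Atp2a1, the pump of fast muscle, and Atp2a3, known from blood cells and some epithelia, had low signals. Atp2a1 gave 67.3 units in the knockout-titled pool and 85.6 units in the wild-type pool, and Atp2a3 gave 188.7 units in the knockout-titled pool and 210.2 units in the wild-type pool. Their log2 ratios were -0.36 and -0.17.

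Of the plasma membrane pumps, Atp2b2, a fast isoform of neurons and hair cells, gave 8900.4 units in the knockout-titled pool and 8889.1 units in the wild-type pool, a log2 ratio of -0.01. Its dimmest probe set gave 479.0 units in the knockout-titled pool and 295.5 units in the wild-type pool, 1.61-fold higher. Atp2b1, the widely made isoform, gave 6550.4 units in the knockout-titled pool and 5999.7 units in the wild-type pool by its brightest probe set. Atp2b3, made mainly in brain, gave 2930.7 units in the knockout-titled pool and 3843.5 units in the wild-type pool, and its dimmer probe set had the opposite sign (log2 ratios -0.40 and 0.22). These 3 isoforms stayed within 1.5-fold by their brightest probe sets.

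Atp2b4 was the 1 member at least 1.5-fold higher. It gave 163.9 units in the knockout-titled pool and 102.1 units in the wild-type pool, a log2 ratio of 0.67 from a single dim probe set that had 0.26 with quantile normalization. Atp2c1, the Golgi pump, gave 2034.3 units in the knockout-titled pool and 1976.7 units in the wild-type pool, with 4 measured probe sets between -0.20 and 0.13. The median over the 8 measured calcium pump genes was 0.01. Of their 20 measured probe sets, 4 were higher and 0 were lower by 1.5-fold or more, against 16.5% higher and 18.1% lower among all 20967.

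In 3 genes a probe set other than the brightest was far higher in the knockout-titled pool than the rest of its gene. For Atp2b1, the third probe set by mean signal gave 4797.1 units in the knockout-titled pool and 481.4 units in the wild-type pool, a 9.88-fold difference. The 2 other Atp2b1 probe sets were only 1.08-fold and 1.36-fold higher. For Atp6v0a2, the second brightest probe set gave 658.7 units in the knockout-titled pool and 184.6 units in the wild-type pool, 3.54-fold higher, beside 1.04-fold and 1.08-fold. For Atp2a2, the dimmest measured probe set gave 482.9 units in the knockout-titled pool and 160.2 units in the wild-type pool, 2.99-fold higher. Probe sets of a gene can match different ends or forms of its transcript. Which form each of these matches was not analysed here.

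Of the 77 pump probe sets, a further 3 were above the floor on the knockout-titled array alone, and 0 on the wild-type array alone. For Atp6v1h, it gave 588.0 units in the knockout-titled pool and 24.9 units in the wild-type pool, at least 9.08-fold higher against the floor. Atp2c1 and Atp6v0a1 each had such a probe set, with 198.0 and 133.3 units in the knockout-titled pool and 11.6 and 46.0 units in the wild-type pool, at least 3.06-fold and 2.06-fold higher. Of all 34945 probe sets of named genes, 2613 were above the floor on the knockout-titled array alone and 1423 on the wild-type array alone. Among measured probe sets other than the brightest of their gene, 11.9% of all and 3 of 33 for the pump genes were higher by 2-fold or more in the knockout-titled pool. Lower by as much were 7.39% of all and 4 of the 33. Over all measured probe sets 6.95% were higher and 7.01% were lower by 2-fold or more. The median signal of the whole array was 124.9 units in the knockout-titled pool and 92.0 units in the wild-type pool. Of the 16 pump genes with several measured probe sets, 9 had all their ratios on the same side of 0.

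The 8 pump genes below the floor on both arrays are forms known mainly from other tissues. They are Atp1a4 of sperm, Atp1b4 of muscle nuclei, Atp2c2 of secretory epithelia, Atp6v0a4 and Atp6v1b1 of kidney and inner ear, Atp6v0d2 of osteoclasts, Atp6v1c2 of epithelia such as kidney and lung, and Atp6v1e2 of testis. Their signals ran from 2.2 to 49.3 units in the knockout-titled pool and from 2.6 to 49.3 units in the wild-type pool. No ratio is given for them.

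**Figure D3:**
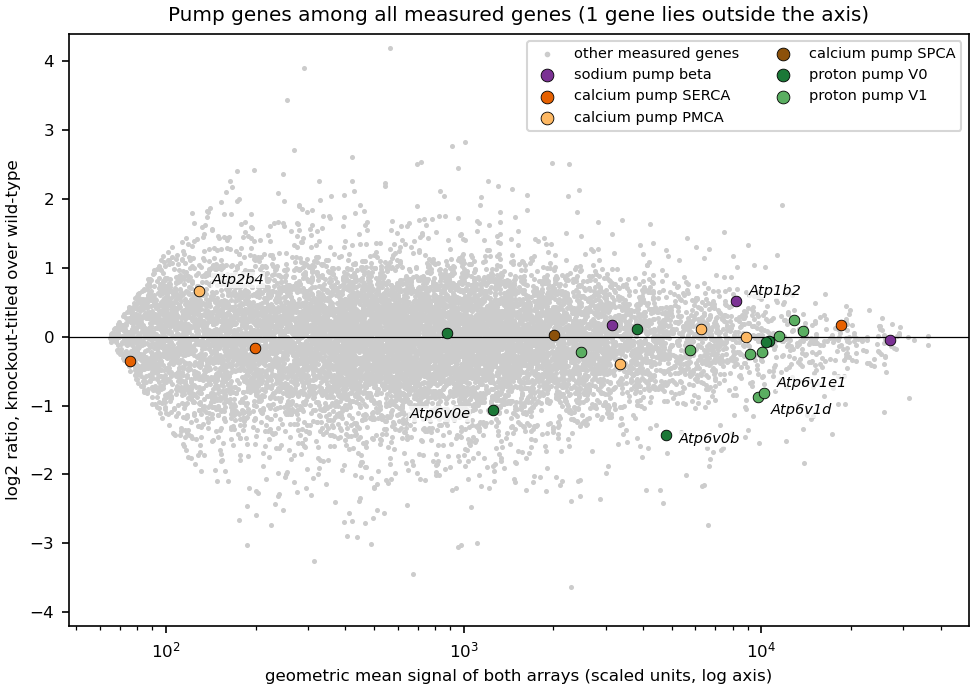
Log2 ratio of knockout-titled over wild-type signal (vertical) against the geometric mean signal of both arrays (log axis, scaled units) for all 12251 measured genes, grey, and the 26 pump genes, coloured by family. Most pump genes are at the bright end close to 0; Atp6v0b, Atp6v1d and Atp6v1e1 lie low in the cloud for their brightness, and 1 grey gene lies outside the axis.

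Proteins that work with the pumps, from lists by role, were mostly within 1.5-fold, as were 8489 of all 12251 measured genes. Of 15 measured V-ATPase partners 1 was higher and 4 were lower by 1.5-fold or more, against 12.5% and 18.3% of all genes. Their median was -0.14, or 0.02 with quantile normalization and 0.34 over the 3 with a second measured probe set by the second brightest. The highest were Dmxl2 (0.60), a rabconnectin that helps assemble the pump on synaptic vesicles, and Atp6ap2 (0.45), an accessory subunit. The brightest Atp6ap2 probe set is suffixed _x_at, and the measured probe sets of this gene ran from -0.27 to 0.45. The lowest were Ncoa7 (-0.70), which binds V1, and Ccdc115 (-0.67), an assembly factor of the endoplasmic reticulum. Tmem199, its assembly partner, had -0.65. Tfeb, the factor named with the promoters, gave 198.5 units in the knockout-titled pool and 241.8 units in the wild-type pool, a log2 ratio of -0.30.

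Of 10 measured sodium pump partners, 8 lay within 1.5-fold, 1 was higher and 1 was lower. Among all genes 12.5% were higher and 18.3% lower. Fxyd2, a small regulatory subunit best known in kidney, gave 424.0 units in the knockout-titled pool and 132.8 units in the wild-type pool, 3.17-fold higher. That probe set is suffixed _x_at, and the lowest ratio among its measured probe sets was 0.94. Fxyd7, the brain member of the family, had 0.02, and Fxyd6 had -0.47. The lowest was Atp4b (-0.59), the beta chain of the stomach proton pump, with 69.0 units in the knockout-titled pool and 103.3 units in the wild-type pool. Atp4a, its catalytic partner, reached the floor in the knockout-titled pool alone, at least 1.46-fold higher there.

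Among 20 measured calcium transport partners, 4 were higher and 3 were lower by 1.5-fold or more, against 12.5% and 18.3% of all genes. Their median was 0.07, or -0.10 with quantile normalization. The highest were Ryr1 (1.40), a calcium release channel, and Slc8a2 (1.06), a sodium-calcium exchanger of neurons. The lowest were Stim2 (-1.27), a sensor of calcium in the reticulum whose dimmer probe set gave 0.38, and Ryr2 (-0.73). Sln, the gene of the SERCA inhibitor sarcolipin, was above the floor on the wild-type array alone. Bsg and Nptn encode partners of PMCA pumps; Bsg had -0.63, and Nptn had -0.06 by its brightest probe set and 0.98 by the other.

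Related ATPases outside the chosen families were read in the same way. The 18 other measured P-type ATPases, mostly lipid flippases and heavy metal or polyamine pumps, had a median of 0.52, with 9 higher by 1.5-fold or more, against 12.5% of all genes, and 0 lower. The highest were Atp10d (1.60) and Atp7b (1.06). Atp7b, the gene of a copper pump, gave 158.8 units in the knockout-titled pool and 75.5 units in the wild-type pool. The lowest were Atp13a2 (-0.14), a lysosomal polyamine pump, and Atp9a (-0.07). Atp8b4 reached the floor in the knockout-titled pool alone, with 85.1 units there and 44.9 units in the wild-type pool. Where a second probe set was measured, in 9 of these genes, the second brightest ones had a median of 0.23, with 1 gene higher and 1 lower. By brightest probe sets the median was 0.28 with quantile normalization and 0.30 with the floor at the 60th percentile. With the median of all probe sets it was 0.35, and 1 gene was lower. Atp8b1 and Atp8b3, among the higher genes, were near the floor, with 76.8 and 81.5 units in the wild-type pool.

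Mitochondrial ATP synthase is a rotary ATPase related to the proton pump that runs in the direction of making ATP. Its 17 measured genes had a median of -0.37, with 0 higher and 4 lower (23.5%) by 1.5-fold or more, against 12.5% and 18.3% of all genes. The median was -0.18 with quantile normalization, and by second brightest probe sets, measured in 10 genes, 2 were higher and 2 lower. Atp5l (-2.35) and Atp5md (-2.15), genes of small membrane subunits, were lowest, and Atp5mpl (0.27) and Atp5o (0.13) highest. The medians were 0.17 for the sodium pumps, 0.01 for the calcium pumps and -0.20 for the proton pumps. With quantile normalization the sodium pump median was 0.24. The differences between lists were not tested.

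**Figure D4:**
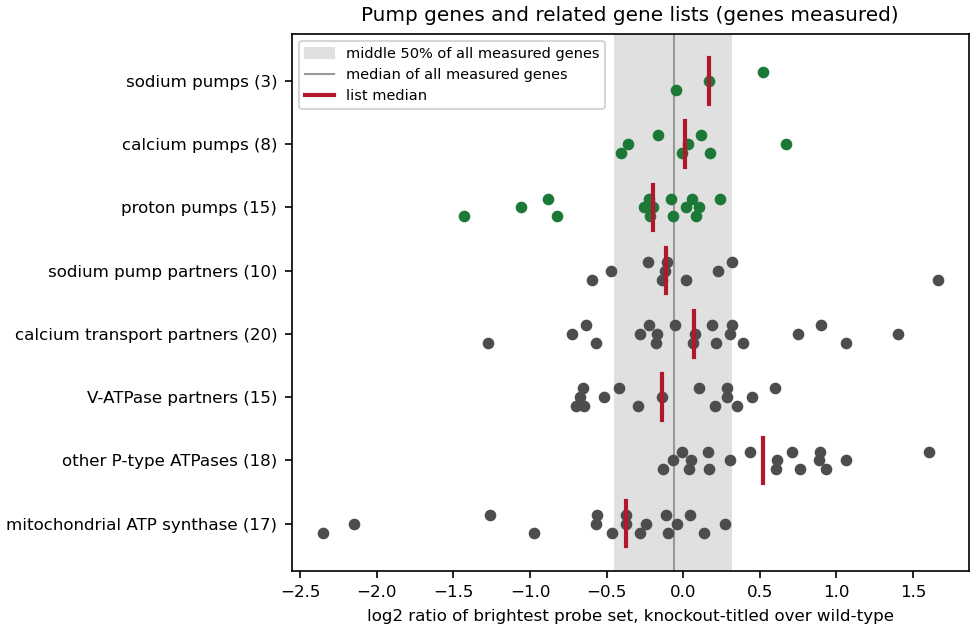
Log2 ratio of knockout-titled over wild-type signal for each measured gene (points) of the pump families, green, and of related lists, grey, with the list medians as red bars; the number of genes is in brackets and the shaded band holds the middle 50% of all measured genes. The medians of the pump families lie inside the band, that of the other P-type ATPases (0.52) lies to its right, and the proton pumps have 4 points to its left.

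Markers of cell types in and around the cortex were read beside these values. Over 9 neuron markers the median was 0.06, with 1 higher and 1 lower by 1.5-fold or more (11.1% each). Among all genes 12.5% were higher and 18.3% lower. The higher marker, Tbr1 of cortical neurons, gave 2218.2 units in the knockout-titled pool and 1057.0 units in the wild-type pool, 2.08-fold higher. The lower one, Neurod6, also cortical, gave 966.8 units in the knockout-titled pool and 2918.0 units in the wild-type pool, 3.04-fold lower. Slc17a7, another cortical marker, had 0.20. Whether the pools matched in cortical neuron content was not tested. Among 8 microglia markers, 5 were lower (62.5%) and 1 was higher (12.5%) by that much, against 18.3% and 12.5% of all genes, with a median of -0.89. Their summed signals were 10582.2 units in the knockout-titled pool and 11823.6 units in the wild-type pool. The 1 higher marker, Cx3cr1, gave 343.6 units in the knockout-titled pool and 87.2 units in the wild-type pool. Csf1r held most of the sums, with 7830.1 units in the knockout-titled pool and 6389.8 units in the wild-type pool. Its measured probe sets ran from -0.70 to 0.28. Without Csf1r the other 7 summed to 2752.1 units in the knockout-titled pool and 5433.8 units in the wild-type pool. Leaving it out was not part of the plan. The 3 measured anterior pituitary markers summed to 667.0 units in the knockout-titled pool and 26438.6 units in the wild-type pool, and Prl, encoding prolactin, gave 9.7 units in the knockout-titled pool and 2350.6 units in the wild-type pool. Choroid plexus markers, from another tissue rich in ion pumps, had 5 of 5 measured within 1.5-fold, against 8489 of all 12251 genes. Whether pituitary or microglial RNA had a part in the low ratios of Atp6v0b, Atp6v0e, Atp6v1d and Atp6v1e1 was not tested.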

How the data were processed

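The authors deposited a linear intensity for each probe set on each array. GCOS, Affymetrix software, is named per the submitters' processing notes, and no version or settings are given in the sources used here. No detection calls were used. Each array's mean after trimming 2% at either end was 500.0, so the arrays came scaled. A single symbol was given for 34945 of the 45037 non-control probe sets, and 34741 of these took the current RefSeq symbol by gene identifier. The floor was the 40th percentile of both arrays' signals, 64.2 units. The log2 ratio, knockout-titled over wild-type, was centred on its median over 23928 measured probe sets (0.01). A gene took its brightest measured probe set. No test was possible with 1 array per group, and the number of arrays limits precision. Calculations were tested on simulated data. Every pump gene is accounted for; partner lists are named by up to 2 genes at either end, with others chosen for their role. Members and lists were chosen with earlier results of these data known. Python 3.11.15 was used with statsmodels 0.14.6, numpy 2.4.6, matplotlib 3.10.9, scipy 1.17.1 and pandas 2.3.3. Other floors, scalings and probe set choices were tried. Protein sequences were not used here.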

Additional observations from a re-analysis of the deposited data

How the results depend on the processing

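The 8 alternatives changed the floor (25th or 60th percentile), the scaling (no centring, quantile normalization, loess with a span of 0.3), the choice of probe set per gene (median over all of them, or the second brightest) and the use of suffixed probe sets. The median over the pump genes, -0.06, was 0.10 with quantile normalization, 0.082 with loess and 0.13 by second brightest probe sets. The proton pump median was -0.046 with quantile normalization, and the calcium pump median was 0.22 by second brightest probe sets. The count of genes at least 1.5-fold higher was 0 with the higher floor, and that of genes at least 1.5-fold lower was 2 without suffixed probe sets and 5 with the lower floor, where Atp6v1b1 joined the others. The cause of the scaling shifts was not tested. Of 191 single-gene values under the alternatives, 7, in 5 genes, moved by more than the probe set error, and 0 of those at least 1.5-fold apart changed sign. A change of floor or no centring shifts every gene by the same small amount, so those values could not move. With second brightest probe sets, which 16 pump genes had, Atp2b3, Atp6v0a2, Atp6v1a, Atp6v1e1 and Atp6v1g1 moved. Without suffixed probe sets, Atp6v1e1 and Atp6v1g1 moved. Atp6v0b stayed between -1.47 and -1.24, Atp6v0e between -1.10 and -0.99, Atp6v1d between -0.93 and -0.62 and Atp6v1e1 between -1.59 and -0.64, wherever they had a value. Dim genes such as Atp2b4 and Atp2a1 lie close to the floor, which limits their ratios.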
